A study of Mus musculus with 12 samples.

Results

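Amino acid transporter genes of the solute carrier families Slc1, Slc3, Slc6, Slc7, Slc36, Slc38 and Slc43 were followed at the level of open chromatin in mouse hepatocytes. Members were all peaks in the deposited table whose nearest annotated gene carried one of these family names. The taurine transporter Slc6a6 (23 peaks) was left out. The rule uses names and no measured value, but it was chosen with earlier results of these data known. It gave 176 peaks at 37 genes, out of 52530 peaks in all. ATAC-seq uses a transposase that inserts adapters where DNA is open, and was run on hepatocyte nuclei bound to beads from liver of female HEP-INTACT mice. INTACT marks the nuclei of a chosen cell type genetically. The promoter or Cre line that drove the tag is not given in the sources used here. The fasted mice had been without food for 16 h from ZT12 and the fed mice had eaten ad libitum. Each of 6 mice, 3 per feeding state, gave a frozen-liver and a fresh-liver library, so the 4 groups of 3 libraries were frozen fasted, frozen fed, fresh fasted and fresh fed. The values carry letters A to C and not mouse numbers, and the frozen and the fresh library of one letter and state were taken as one mouse because their values deviated together.

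Liver cells take up amino acids from portal blood for protein synthesis, gluconeogenesis and ureagenesis, and during a fast they receive alanine and glutamine released by muscle. Slc38 carriers bring in small neutral amino acids with sodium, Slc1 and Slc6 carriers also use sodium, and Slc36 carriers use protons and are found in part on lysosomes. The Slc7 family holds the cationic amino acid transporters and the light chains that pair with the Slc3 heavy chains to form exchangers, while the Slc43 carriers move neutral amino acids without sodium. The family names are wider than the working name of the set: Slc6a4 and Slc6a2 carry serotonin and noradrenaline, Slc6a12 and Slc6a13 carry GABA and betaine or taurine, Slc43a3 is known as a purine transporter, and Slc6a19os and Slc7a6os are transcripts on the opposite strand of a carrier gene.

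The first 4 promoter lines printed here show where the peaks lay at gene starts on which the results below turn. Slc38a4 is shown at 2 of its 3 RefSeq starts because the peaks at these starts differed in fasting, Slc36a4 and Slc38a9 because they encode lysosomal carriers whose start peaks were higher in fasted mice, and Slc6a13 because its promoter held the only pair of matches to a searched motif. Promoter sequences are those of RefSeq on GRCm38.p6, whose coordinates equal those of mm10, and 29 of the 37 genes were matched, with 42 start windows. Each line gives the 250 bases before the start, 5′ to 3′ on the strand of the gene. In the first 4 lines capitals mark bases under the peak, and in the Slc6a13 line capitals mark the matches to ACANNNTGT. Both matches lie upstream of the Slc6a13 start peak, whose listed start is chr6:121300076, and not under it. The intervals are chr15:97020360-97020609 on the minus strand for the downstream start of Slc38a4, chr15:97031214-97031463 on the minus strand for its middle start, chr9:15709488-15709737 on the plus strand for Slc36a4, chr13:112660516-112660765 on the plus strand for Slc38a9 and chr6:121300038-121300287 on the plus strand for Slc6a13.
Slc38a4, downstream start: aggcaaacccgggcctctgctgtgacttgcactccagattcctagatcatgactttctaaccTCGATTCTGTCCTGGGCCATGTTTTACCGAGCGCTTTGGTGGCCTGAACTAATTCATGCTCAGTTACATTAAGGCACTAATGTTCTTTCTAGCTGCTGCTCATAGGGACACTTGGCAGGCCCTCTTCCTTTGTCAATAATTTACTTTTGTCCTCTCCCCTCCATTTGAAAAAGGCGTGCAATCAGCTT
Slc38a4, middle start: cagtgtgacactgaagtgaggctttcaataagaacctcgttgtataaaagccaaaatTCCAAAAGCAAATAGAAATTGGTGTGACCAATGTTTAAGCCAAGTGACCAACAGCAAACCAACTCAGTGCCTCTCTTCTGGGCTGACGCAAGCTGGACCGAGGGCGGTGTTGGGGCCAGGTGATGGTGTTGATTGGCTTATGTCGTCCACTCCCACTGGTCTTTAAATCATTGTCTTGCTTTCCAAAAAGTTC
Slc36a4: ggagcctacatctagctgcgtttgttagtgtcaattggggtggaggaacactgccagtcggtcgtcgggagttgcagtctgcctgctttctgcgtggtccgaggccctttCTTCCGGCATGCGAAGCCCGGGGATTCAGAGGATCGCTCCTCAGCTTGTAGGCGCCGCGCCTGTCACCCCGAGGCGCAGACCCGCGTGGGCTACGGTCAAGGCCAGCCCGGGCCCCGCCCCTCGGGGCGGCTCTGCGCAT
Slc38a9: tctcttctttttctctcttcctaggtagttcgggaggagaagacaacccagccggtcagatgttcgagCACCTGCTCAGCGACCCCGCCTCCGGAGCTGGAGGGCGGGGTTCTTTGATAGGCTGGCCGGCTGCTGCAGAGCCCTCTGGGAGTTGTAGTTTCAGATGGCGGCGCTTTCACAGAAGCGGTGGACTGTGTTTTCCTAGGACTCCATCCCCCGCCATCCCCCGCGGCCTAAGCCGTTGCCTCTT
Slc6a13: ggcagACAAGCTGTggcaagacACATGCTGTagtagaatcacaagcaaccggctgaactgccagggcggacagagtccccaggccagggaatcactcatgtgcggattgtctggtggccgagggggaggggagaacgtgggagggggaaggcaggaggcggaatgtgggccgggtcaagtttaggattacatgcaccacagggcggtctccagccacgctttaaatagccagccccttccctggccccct
The G and C content of these stretches was 47.2% at the downstream and 46.0% at the middle start of Slc38a4, 66.0% at Slc36a4 and 60.8% at Slc6a13.

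The start windows (250 bases before to 50 after the start) were searched on both strands for 5 short motifs. ACANNNTGT, the core of a glucocorticoid receptor element, was found in 4 of 42 member windows (9.52%), at Slc1a2, Slc38a11, Slc3a1 and Slc6a13, and in 6.85% of all 32851 windows. TGATGNAA, the core of the C/EBP-ATF response element through which amino acid shortage acts on genes, was found at Slc1a4 and Slc6a21 (4.76% of member windows against 3.97% of all). The cAMP response element TGACGTCA was found at Slc38a6 (2.38% against 1.79%). The forkhead core TGTTTAC was found in 0 member windows, against 3.65% of all, and the direct repeat element of nuclear receptors in 0, against 0.0396%. No searched motif contains another, and a match is a description of the sequence only.

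If the smallest step between values in a library is taken as 1 read, the libraries held 3692152 to 14506057 reads in peaks. The median member peak then had 51 to 191.5 reads per library, a counting error of 14.0% to 7.23% of the value. Peaks of hepatocyte marker genes summed to 11495 to 12836 normalized reads in frozen fasted, 10675 to 11912 in frozen fed, 9770 to 10530 in fresh fasted and 9703 to 10414 in fresh fed libraries. All 7 hepatocyte markers had peaks, and their sums cover 78 peaks. Among 6 genes each, 2 macrophage markers (2 peaks), 3 bile duct markers (4 peaks) and 4 endothelial markers (11 peaks) had peaks. These lists summed to at most 161, 369 and 1241 normalized reads. Because the sums cover such different numbers of peaks, they do not give the share of hepatocyte nuclei. In nuclei taken in bulk, fewer nuclei of a type and a weaker signal per nucleus cannot be told apart.

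Most member peaks lay inside genes and away from starts. Of the 176 peaks, 94 were in introns (53.4%, against 38.2% of all peaks), 47 were intergenic (26.7% against 26.9%) and 33 were in the promoter class (18.8% against 27.9%). Within 1 kb of a start lay 42 (23.9%, against 35.3%), and the 134 others had a median distance of 14.0 kb. The sodium-coupled carrier genes Slc38a4 and Slc38a2 had the most peaks, 22 and 18, followed by the arginine transporter gene Slc7a2 with 12 and Slc3a1 with 11. Each peak is listed as 200 bp wide, 26 overlapped another member peak and so share reads with it, and the median peak had 103 normalized reads, against 114 over all peaks. A peak is assigned to the gene whose start is nearest, and 9 member peaks lay in or at the start of another gene, 3 of them Slc6a12 peaks in introns of its neighbour Slc6a13.

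Fasting moved member peaks in both directions. With the frozen and the fresh library of a mouse averaged, accessibility was higher in fasted mice at 28 of the 176 peaks and lower at 32 (34.1% of members called; limma on log2(normalized reads + 1), Benjamini-Hochberg over all peaks, adjusted p under 0.05). Over all peaks 34.6% were called, 16.5% higher and 18.1% lower, so the share among transporter peaks was near the background. Over the members the median log2 difference was 0.02, against 0.05 over all peaks. Within 1 kb of a start 6 of 42 member peaks were higher and 5 lower (26.2%), against 24.2% of all such peaks, of which 19.7% were higher and 4.59% lower. Beyond 1 kb 22 of 134 were higher and 27 lower (36.6%), against 40.2%. Of the 37 genes 8 had called peaks in the higher direction only, 14 in the lower direction only, 7 in both and 8 had none. When libraries were scaled to the peaks near gene starts, 19 member peaks were higher (10.8%) and 47 lower (26.7%), against 7.74% and 24.5% of all peaks, and the median over all peaks was -0.08. Of the 60 calls 33 were kept in every one of up to 11 other settings and 27 were lost in at least 1, with no change of sign. Without fed mouse A 39 member peaks were called (11.9% higher and 10.2% lower, against 10.3% and 13.2% of all peaks).

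A log2 difference over 1 was reached by 5 higher and 9 lower member peaks, against 1.53% and 5.62% of all peaks. At 12 member peaks all 6 fasted libraries lay above all 6 fed libraries and at 13 they lay below (25 of 176 in all, against 12.9% of all peaks in either direction). The largest differences lay beyond 1 kb from a start, at single peaks of Slc7a14 and Slc38a4 among those higher and of Slc7a10, Slc38a7 and Slc6a19os among those lower. The plot of fasting differences by family shows these peaks apart from the mass of members near 0. Of these single peaks only that of Slc38a4 was tested when the lowest 25% of peaks were left out. The others lay in that 25%, as did the Slc7a15 repeat peak described below.

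**Figure D1:**
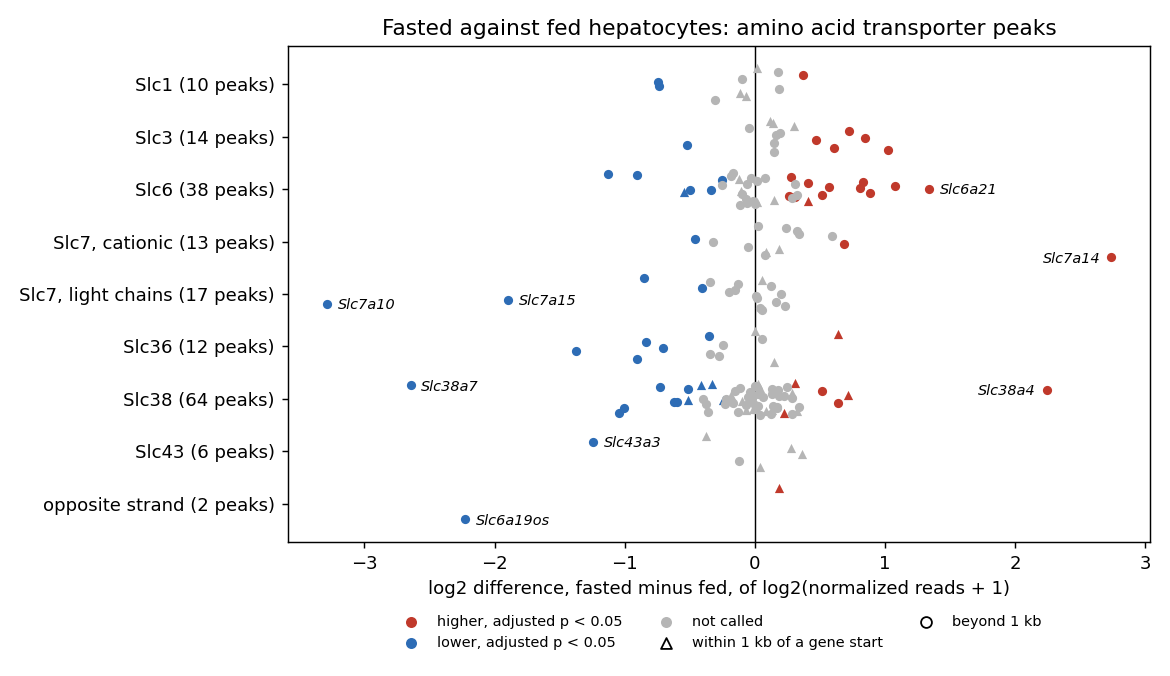
Log2 difference (fasted minus fed, mean of the frozen and the fresh library of each mouse) of the 176 member peaks by family, with triangles within 1 kb of a start and circles beyond. Red and blue points passed the test in the higher (28) and the lower (32) direction, and most of the 64 Slc38 peaks lie near 0 beside single peaks at 2.24 and -2.65.

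The sodium-coupled neutral carriers of Slc38 held 64 of the peaks, of which 6 were higher and 11 lower in fasted mice, with a median log2 difference of 0.01. Scaling to peaks near gene starts gave 4 higher and 16 lower peaks and a median of -0.12. Without fasted mouse A there were 5 higher and 6 lower, without fed mouse A 6 and 6, and without fasted mouse B 10 and 11. Slc38a4 encodes SNAT4, a liver carrier of alanine and other neutral amino acids whose gene is imprinted in the mouse. The peak at -19.5 kb (chr15:97075343-97075543), inside an annotated lncRNA gene that overlaps the upstream part of Slc38a4, had 144, 126 and 171 normalized reads in frozen fasted libraries and 126, 105 and 160.5 in fresh fasted ones, against 33.4, 14.3 and 28.9 in frozen fed and 35.5, 26.6 and 37.5 in fresh fed libraries. All fasted libraries were above all fed ones. The means were 139 ± 25.4 normalized reads in fasted and 29.4 ± 7.74 in fed mice (SD, n = 3 each), a log2 difference of 2.24 ± 0.23 (SE; limma, adjusted p = 0.00023). In the authors' deposited table its log2 fold change was 2.45 in frozen and 1.92 in fresh liver.

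The starts of Slc38a4 that carried a peak differed. The peak at -88 bp from the downstream start (chr15:97020347-97020547; the downstream-start sequence above) had 110.1, 104 and 118 normalized reads in frozen fasted libraries and 78, 77.9 and 93.8 in fresh fasted ones, against 57.2, 49.4 and 71 in frozen fed and 58.6, 47.8 and 66.4 in fresh fed libraries. Again no fasted library overlapped a fed one, and the log2 difference was 0.72 ± 0.15 (limma, adjusted p = 0.00594). The peak at -93 bp from the middle start (chr15:97031206-97031406; the middle-start sequence above), 10854 bp away, had 312, 290.3 and 343 normalized reads in frozen fasted libraries and 216, 221 and 214 in fresh fasted ones, against 314, 333 and 304 in frozen fed and 242, 211 and 221 in fresh fed libraries. Here fasted and fed libraries overlapped in both preparations and the log2 difference was -0.03 ± 0.06 (adjusted p = 0.716), while every frozen library lay above every fresh one. Another called peak of Slc38a4, in an intron at 6.29 kb from the most upstream start, was higher by 0.52 ± 0.11 (adjusted p = 0.00734), and a peak at -33.9 kb was lower, with a difference of -0.52 ± 0.17 (adjusted p = 0.044). That last call was lost when fed mouse A, fed mouse C, fasted mouse A or fasted mouse C was left out (adjusted p up to 0.161). The other 18 peaks of the gene were not called, as the plot along the locus shows.

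**Figure D2:**
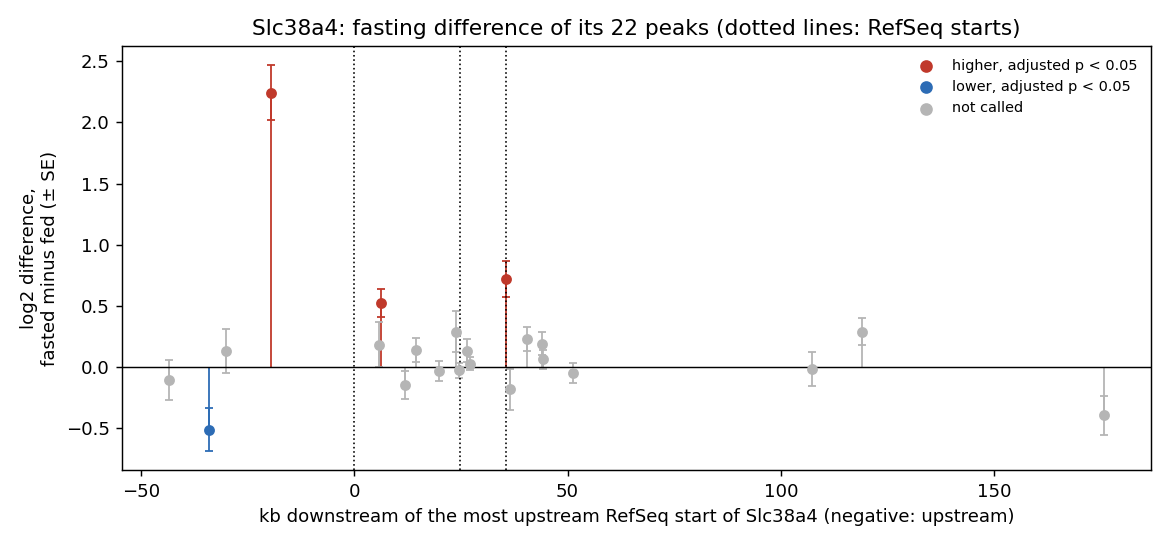
Log2 difference (fasted minus fed) with its standard error at the 22 Slc38a4 peaks, placed by distance in kb from the most upstream RefSeq start, with dotted lines at the 3 starts. The peak at -19.5 kb stands at 2.24, the peak at the most downstream start at 0.72 and the peak at the middle start at -0.03.

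Slc38a2 encodes SNAT2, the carrier known to rise in cells deprived of amino acids. Of its 18 peaks 1 was higher and 1 lower (4 and 1 without fasted mouse B, 1 and 2 without fasted mouse C). The start peak at -20 bp had 251 ± 21.4 normalized reads in fasted and 229 ± 2.50 in fed mice and a log2 difference of 0.13 ± 0.08 (limma, adjusted p = 0.196), with overlap between the fasted and the fed libraries. The peak at -8.88 kb (chr15:96708506-96708706) had 51.9, 72.4 and 35.6 normalized reads in frozen fasted libraries and 65.1, 86.8 and 52 in fresh fasted ones, against 127, 142 and 91.1 in frozen fed and 110.0, 127 and 119 in fresh fed libraries. Every fasted library lay below every fed one, and the log2 difference was -1.01 ± 0.20 (adjusted p = 0.00482). A peak at -158 kb, in the interval between Slc38a2 and Slc38a4, was higher by 0.64 ± 0.11 (adjusted p = 0.00184).

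Slc38a3 encodes SNAT3, which moves glutamine across the hepatocyte membrane, and 4 of its 8 peaks were lower and 0 higher. Its start peak at -39 bp was not called (-0.10 ± 0.06, limma, adjusted p = 0.204), and a start peak at -177 bp of another transcript was lower, with a difference of -0.51 ± 0.14 (adjusted p = 0.0205, up to 0.0846 without fed mouse A, fed mouse B or fasted mouse A). The intronic peak at 7.62 kb was the one of lowest p, with 54.3 ± 5.15 normalized reads in fasted and 83.1 ± 7.64 in fed mice and a log2 difference of -0.60 ± 0.14 (adjusted p = 0.00979). That call was kept in every other setting tried, while the other 3 were all lost without fasted mouse A, and 2 of the 4 calls remained without fed mouse A or fed mouse B. After scaling to peaks near gene starts 6 of the 8 were lower.

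Slc38a7, a lysosomal glutamine carrier, had 3 lower peaks of 7. At the intronic peak at 2.98 kb (chr8:95850408-95850608) the values were 7.28, 13.1 and 11.1 normalized reads in frozen fasted libraries and 10.2, 19.7 and 9.04 in fresh fasted ones, against 71.5, 54.2 and 68.3 in frozen fed and 105, 77 and 85.4 in fresh fed libraries. All fasted libraries held few reads and none reached a fed library. The log2 difference was -2.65 ± 0.26 (limma, adjusted p = 0.000217), whereas the start peak at -101 bp of the same gene stood at 0.03 ± 0.06 (adjusted p = 0.757). The authors' deposited table gave log2 fold changes of -2.65 in frozen and -2.70 in fresh liver for the intronic peak.

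Slc38a9 encodes a lysosomal arginine sensor that acts on mTORC1, the kinase complex that responds to amino acids. Its only peak, at -83 bp (the Slc38a9 sequence above), had 209, 218 and 271 normalized reads in frozen fasted libraries and 416, 383 and 412 in fresh fasted ones, against 194, 137 and 168 in frozen fed and 370.1, 379.7 and 358 in fresh fed libraries. Fasted and fed libraries did not overlap within frozen or within fresh liver, although the fresh libraries were all above the frozen ones. In fresh liver the closest values were 383 and 379.7, and the log2 difference of 0.13 was not called. In frozen liver the difference of 0.49 was called, and the test between preparations was not passed. With both libraries of a mouse averaged the log2 difference was 0.31 ± 0.08 (limma, adjusted p = 0.0172). This call was lost without fed mouse B (adjusted p = 0.0725) and after scaling to peaks near gene starts (adjusted p = 0.118). Among the less studied members, Slc38a11 was lower at 29.7 kb, with a difference of -1.04 ± 0.16 (adjusted p = 0.00149), with 85.5 ± 20.4 normalized reads in fasted and 175 ± 6.88 in fed mice. The Slc38a10 start peak was higher by 0.23 ± 0.06 (adjusted p = 0.0162), a call lost without fed mouse B or fasted mouse A (adjusted p up to 0.064) and after scaling to peaks near gene starts (adjusted p = 0.241). No peak of Slc38a1, which encodes SNAT1, was called; its peak at -24.0 kb differed by 0.12 ± 0.14.

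The proton-coupled Slc36 carriers had 1 higher and 5 lower peaks of 12, where 16.5% of all peaks were higher and 18.1% lower. Their median log2 difference was -0.31. Scaling to peaks near gene starts gave 1 higher and 8 lower, where 7.74% and 24.5% of all peaks were called. Without the lowest 25% of peaks 8 Slc36 peaks were tested, with 0 higher and 2 lower. Slc36a1 encodes PAT1, which exports small amino acids from lysosomes. Of its 8 peaks 4 were lower and 0 higher, all 4 in introns. The peak at 11.9 kb had 23.7, 43.6 and 26.7 normalized reads in frozen fasted libraries and 21.7, 46.2 and 22.6 in fresh fasted ones, against 57.2, 115 and 70.1 in frozen fed and 66.6, 82.3 and 85.4 in fresh fed libraries, and its log2 difference was -1.37 ± 0.27 (limma, adjusted p = 0.00435). The peak at 13.2 kb (chr11:55217444-55217644) was the one of lowest p in the gene, with 136, 196 and 138 normalized reads in frozen fasted libraries and 171, 179 and 150.3 in fresh fasted ones, against 248, 299 and 262 in frozen fed and 229.9, 299 and 244 in fresh fed libraries. At both peaks all fasted libraries lay below all fed libraries. The peak at 11.9 kb was not tested without the lowest 25% of peaks. The difference at the second was -0.71 ± 0.11 (adjusted p = 0.00173), while the start peak of Slc36a1 was not called (0.15 ± 0.11, adjusted p = 0.29).

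Slc36a4 encodes PAT4, a lysosomal and surface carrier with high affinity for tryptophan and proline. Its start peak at -41 bp (the Slc36a4 sequence above) had 62.8, 75.8 and 80.1 normalized reads in frozen fasted libraries and 90.3, 99.7 and 99.4 in fresh fasted ones, against 38.1, 51 and 53.4 in frozen fed and 63, 50.5 and 69 in fresh fed libraries. Fasted and fed libraries did not overlap within either preparation, and the log2 difference was 0.64 ± 0.14 (limma, adjusted p = 0.00788). The peak at 521 bp, just inside the gene, stood at 0.00 ± 0.19. The call at the start peak was kept in every other setting tried. A peak at -27.7 kb was lower, with a difference of -0.35 ± 0.12 (adjusted p = 0.0476), and this call was lost when any 1 mouse was left out (adjusted p up to 0.127) and under quantile normalization.

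The Slc1 carriers had 1 higher and 2 lower peaks of 10 (0 and 3 after scaling to peaks near gene starts, and 1 and 1 without fed mouse B or fed mouse C). Slc1a4 encodes ASCT1, an exchanger of alanine, serine and cysteine. Both of its start peaks were uncalled, at -0.07 ± 0.05 and -0.11 ± 0.10. Its peak of lowest p, at -63.5 kb, was higher by 0.37 ± 0.09 (limma, adjusted p = 0.00919, and 0.0587 after that scaling). At -40.1 kb a peak was lower, with a difference of -0.74 ± 0.18 (adjusted p = 0.0107). Slc1a5, the glutamine exchanger ASCT2, had a single peak at its start, with 68.5 ± 5.03 normalized reads in fasted and 66.6 ± 8.65 in fed mice (difference 0.02 ± 0.15), and Slc1a2, the glutamate carrier GLT-1, a single intronic peak (-0.31 ± 0.17). Neither was called. Slc1a1 had no peak assigned and was not analysed here.

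The heavy chains of Slc3 had 5 higher peaks and 1 lower peak of 14 (median 0.18; 4 higher and 1 lower after scaling to peaks near gene starts). All 6 belonged to Slc3a1, which encodes rBAT, the partner of Slc7a9 in cystine and dibasic amino acid transport. The peak at 9.72 kb (chr17:85037965-85038165), in an intron, had 108, 112 and 196 normalized reads in frozen fasted libraries and 105, 91.9 and 168 in fresh fasted ones, against 72.7, 55.7 and 53.4 in frozen fed and 60.3, 61.1 and 65.7 in fresh fed libraries. Fasted mouse C was the highest in both preparations, and the lowest fasted library was still above the highest fed one. The log2 difference was 1.02 ± 0.20 (limma, adjusted p = 0.00445). The peak at 24.7 kb had 118 ± 13.7 normalized reads in fasted and 69.7 ± 6.85 in fed mice and a difference of 0.73 ± 0.13 (adjusted p = 0.00248), and the peak at 23.4 kb, in an L1 repeat, 0.85 ± 0.17 (adjusted p = 0.00459). The lower peak, at 15.3 kb, stood at -0.52 ± 0.15 (adjusted p = 0.0218, up to 0.0882 without fed mouse A, fed mouse B or fasted mouse B). The 3 peaks of Slc3a2, the 4F2 heavy chain that carries the large neutral amino acid exchangers to the membrane, were not called, with differences of 0.12, 0.14 and 0.30.

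Among the cationic branch of Slc7, 2 of 13 peaks were higher and 1 lower (3 and 0 without fasted mouse A, 5 and 0 without fasted mouse B, 2 and 2 without fasted mouse C, and 2 and 0 without any 1 fed mouse). Slc7a14 is a lysosomal member of the branch, and its 1 peak, intergenic at -58.2 kb (chr3:31368381-31368581), had 60.1, 74.1 and 84.6 normalized reads in frozen fasted libraries and 78.7, 99.2 and 75.7 in fresh fasted ones, against 4.76, 7.96 and 10.5 in frozen fed and 16.9, 9.29 and 23.7 in fresh fed libraries. This was the largest increase in the set: the lowest fasted library was above the highest fed one. The means were 78.7 ± 8.72 normalized reads in fasted and 12.2 ± 4.39 in fed mice (SD, n = 3 each), with a log2 difference of 2.74 ± 0.26 (limma, adjusted p = 0.000187). Slc7a2 encodes CAT2, the arginine transporter of liver, and had 12 peaks. The intronic peak at 14.5 kb was higher, with 217, 164 and 254 normalized reads in frozen fasted libraries and 135, 115 and 209 in fresh fasted ones, against 111, 132 and 123 in frozen fed and 105, 109 and 82.1 in fresh fed libraries. Fasted and fed libraries did not overlap within frozen or within fresh liver, and fasted mouse C was the highest of its group in both. The difference was 0.68 ± 0.16 (adjusted p = 0.0111). The start peaks of Slc7a2 were not called, at 0.09 ± 0.19 and 0.18 ± 0.11. A peak at 23.7 kb was lower, with a difference of -0.46 ± 0.15 (adjusted p = 0.0383), a call lost when any mouse but fasted mouse C was left out (adjusted p up to 0.129).

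The light chains of Slc7 had 0 higher and 4 lower peaks of 17 (0 and 5 after scaling to peaks near gene starts). Slc7a10 encodes Asc-1, a carrier of small neutral amino acids. Its intronic peak at 3.55 kb (chr7:35189835-35190035), in an L2 repeat, had 7.28, 20.9 and 2.23 normalized reads in frozen fasted libraries and 8.14, 27 and 3.39 in fresh fasted ones, against 70.3, 79.6 and 59.6 in frozen fed and 139, 92.9 and 124 in fresh fed libraries. The fasted libraries spread widely, with mouse B highest in both preparations, but all were far below the fed ones. The means were 11.5 ± 11.1 normalized reads in fasted and 94.3 ± 9.50 in fed mice and the log2 difference of -3.29 ± 0.54 (limma, adjusted p = 0.00185) was the largest decrease in the set. The other 3 peaks of Slc7a10, between -14.4 kb and -18.3 kb, were not called.

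Slc7a15, a mouse carrier with a preference for aromatic amino acids, was lower at an intronic RMER19B repeat at -24.0 kb, with 19.1, 30.5 and 22.3 normalized reads in frozen fasted libraries and 21, 27 and 20.3 in fresh fasted ones, against 92.9, 102 and 69.2 in frozen fed and 105, 91.6 and 76.9 in fresh fed libraries. The groups were separated and the difference was -1.90 ± 0.20 (limma, adjusted p = 0.000281). Slc7a6, the y+LAT2 light chain, was lower at its intronic peak at 16.9 kb, with 64.9 ± 13.6 normalized reads in fasted and 118 ± 7.62 in fed mice and -0.85 ± 0.16 (adjusted p = 0.00339). Slc7a5, the LAT1 light chain for large neutral amino acids, had an uncalled start peak at 0.06 ± 0.06 (adjusted p = 0.519). Its called peak, at 10.8 kb, was lower, with a difference of -0.41 ± 0.12 (adjusted p = 0.026), and this call was lost when fed mouse A, fed mouse C, fasted mouse A or fasted mouse B was left out (adjusted p up to 0.0857). Slc7a1, Slc7a7, Slc7a8, Slc7a9 and Slc7a11 had no peak assigned and were not analysed here.

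The Slc6 carriers had 12 higher and 6 lower peaks of 38, their median log2 difference being 0.01, and 8 higher and 9 lower after scaling to peaks near gene starts. Without fasted mouse A or fed mouse A there were 7 higher and 2 lower, without fed mouse B 9 and 3, and without fed mouse C 10 and 2. Slc6a21 and Slc6a16 are neighbours on chromosome 7 that encode carriers without a well-defined substrate, and all 4 Slc6a21 peaks and the 1 Slc6a16 peak were higher. The Slc6a21 peak at -18.3 kb, in an intron of Slc6a16, had 226, 209 and 191 normalized reads in frozen fasted libraries and 185, 176 and 163 in fresh fasted ones, against 77.4, 55.7 and 85.9 in frozen fed and 88.7, 59.7 and 88 in fresh fed libraries. The difference was 1.34 ± 0.15 (limma, adjusted p = 0.00033). At 17.1 kb, inside an annotated lncRNA gene, Slc6a21 had 126, 127 and 125 normalized reads in frozen fasted libraries and 114, 114 and 116 in fresh fasted ones, against 52.4, 60.5 and 65.7 in frozen fed and 47, 51.8 and 63.7 in fresh fed libraries, a difference of 1.08 ± 0.13 (adjusted p = 0.000402). The Slc6a16 peak at 20.8 kb differed by 0.88 ± 0.15 (adjusted p = 0.0019). At these 3 peaks no fasted library overlapped a fed one, and the 4 Slc6a21 peaks were also called higher after scaling to peaks near gene starts. The call at 1 of the 4, with a difference of 0.57, was lost without fed mouse A, fed mouse B, fasted mouse A or fasted mouse B (limma, adjusted p up to 0.0733). Without the lowest 25% of peaks only 2 of the 4 were tested, and both were higher.

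Slc6a13 encodes GAT2, a hepatocyte carrier of GABA and taurine, and 4 of its 9 peaks were higher and 0 lower (2 and 1 after that scaling, and 2 and 0 without fed mouse A or fasted mouse A). The start peak at -112 bp (the Slc6a13 sequence above) had 212, 247 and 223 normalized reads in frozen fasted libraries and 182, 198 and 196 in fresh fasted ones, against 181, 145 and 187 in frozen fed and 129.6, 149 and 155 in fresh fed libraries. Fasted and fed libraries were apart within frozen and within fresh liver, and the log2 difference was 0.41 ± 0.08 (limma, adjusted p = 0.00527), a call kept in every other setting tried. Slc6a12, the betaine carrier BGT1 next to it, had 5 peaks and none was called; its start peak at -55 bp had 394 ± 11.8 normalized reads in fasted and 389 ± 15.5 in fed mice.

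Slc6a9 encodes GlyT1, a glycine carrier, with 1 higher and 3 lower peaks of 10 (0 and 4 after that scaling, and 0 and 2 when any mouse but fasted mouse B was left out). The peak of lowest p, at 2.80 kb, had 25.5, 36.6 and 42.3 normalized reads in frozen fasted libraries and 48.2, 55.6 and 33.9 in fresh fasted ones, against 75, 73.3 and 77.1 in frozen fed and 88.7, 86.3 and 130.1 in fresh fed libraries, with no overlap, and a difference of -1.13 ± 0.16 (limma, adjusted p = 0.000969). The start peak of Slc6a9 stood at -0.12 ± 0.20 (adjusted p = 0.658). Slc6a4, the serotonin carrier gene, was higher at 29.8 kb by 0.83 ± 0.14 (adjusted p = 0.00228), with 117 ± 11 normalized reads in fasted and 67 ± 10.9 in fed mice. Slc6a19, the neutral carrier B0AT1, was lower at 193 bp, with a difference of -0.54 ± 0.16 (adjusted p = 0.0299, up to 0.0969 without fed mouse A, B or C or fasted mouse A), and at 31 bp it stood at -0.11 ± 0.13. Slc6a8 was not analysed here.

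An intron of Slc6a19 also held the peak assigned to the opposite-strand transcript Slc6a19os, at -3.10 kb from its start. It had 7.28, 6.97 and 6.68 normalized reads in frozen fasted libraries and 14.3, 23.4 and 5.65 in fresh fasted ones, against 41.7, 35 and 27.2 in frozen fed and 83.4, 63.7 and 55.2 in fresh fed libraries. No fasted library reached a fed library, and the difference was -2.23 ± 0.31 (limma, adjusted p = 0.000861). The other opposite-strand member, Slc7a6os, was higher at its start by 0.19 ± 0.06 (adjusted p = 0.0247), a call lost without fed mouse A, fed mouse B, fasted mouse A or fasted mouse B (adjusted p up to 0.0824) and after both other scalings (adjusted p up to 0.421).

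The Slc43 carriers had 0 higher peaks and 1 lower peak of 6 (0 and 3 after scaling to peaks near gene starts, 2 and 2 after quantile normalization). The lower peak lay at -2.15 kb from Slc43a3 and had 25.5, 30.5 and 8.90 normalized reads in frozen fasted libraries and 70.6, 70.6 and 26 in fresh fasted ones, against 52.4, 54.2 and 42.9 in frozen fed and 122, 113 and 110.4 in fresh fed libraries. Fasted mouse C was the lowest in both preparations, and the groups were apart within each preparation. The difference was -1.24 ± 0.35 (limma, adjusted p = 0.0214), and it was not called without fed mouse A (adjusted p = 0.0716) or fed mouse B (adjusted p = 0.0775). The start peaks of Slc43a1 (LAT3) and Slc43a2 (LAT4), carriers of branched-chain and other large neutral amino acids, were not called, at 0.04, 0.36 and 0.28. Quantile normalization called both Slc43a2 start peaks higher, with a median of 0.47. The values of 9 members by library are drawn together in the plot of normalized reads.

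**Figure D3:**
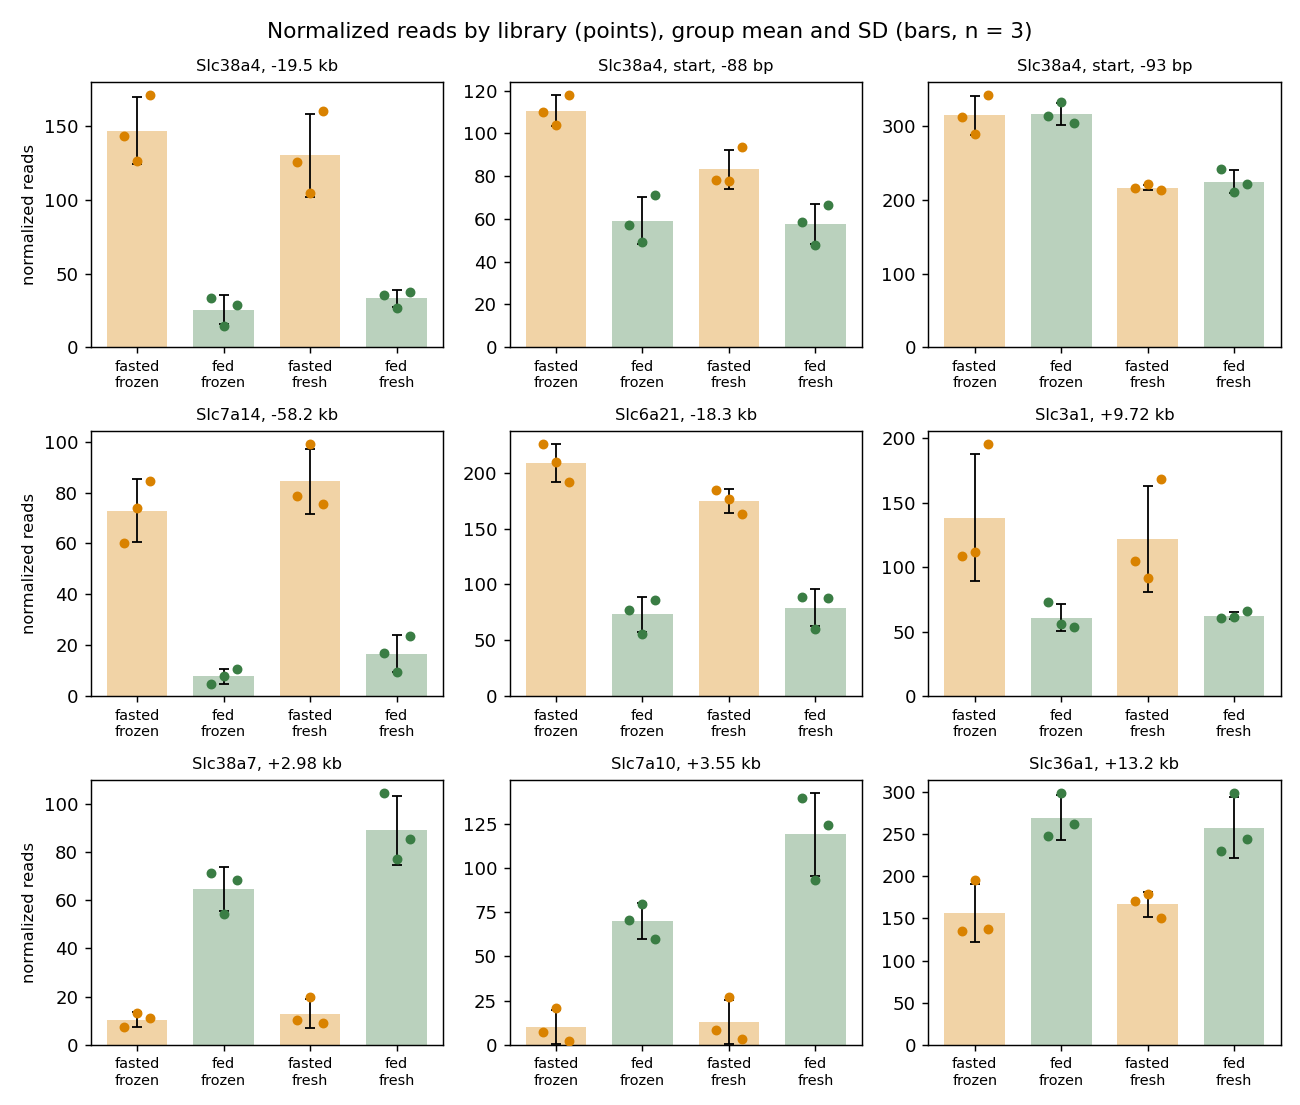
Normalized reads in each of the 12 libraries (points; replicates A, B and C from left to right) at 9 member peaks, with bars for the group mean and error bars for the SD (n = 3). Fasted and fed points are apart in both preparations at 8 of the peaks, and overlap at the Slc38a4 start peak at -93 bp, where frozen libraries lie above fresh ones.

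No member peak was called in opposite directions by fasting in frozen and in fresh liver. In frozen liver alone 29 member peaks were higher and 26 lower (31.2%; background 27.8%, 12.8% higher and 15% lower), and in fresh liver 20 were higher and 23 lower (24.4%; background 27.6%, 11.4% higher and 16.1% lower). Both preparations called 36 peaks (20.5%, against 19.2% of all peaks), 19 higher (10.8% against 7.06%) and 17 lower (9.66% against 12.1%). Called in frozen liver alone were 19 (10.8% against 8.57%) and in fresh liver alone 7 (3.98% against 8.38%). A direct test of whether the fasting effect differed between frozen and fresh liver passed at 0 member peaks (0% of all peaks; limma, with 6 members at an unadjusted p under 0.05). A peak called in a single preparation is therefore not shown to respond differently there. At Slc7a14 the log2 difference was 3.12 ± 0.32 in frozen and 2.36 ± 0.31 in fresh liver, and at the -19.5 kb peak of Slc38a4 it was 2.55 ± 0.28 and 1.94 ± 0.20 (SE). Scaling to peaks near gene starts gave 16 higher and 36 lower in frozen liver (9.09% and 20.5%, against 6.54% and 20.1% of all peaks) and 13 and 34 in fresh liver (7.39% and 19.3%, against 5.62% and 22.6%). Quantile normalization gave 26 higher and 28 lower in frozen liver (14.8% and 15.9%, against 12.6% and 14.3% of all peaks). In fresh liver it gave 29 and 22 (16.5% and 12.5%, against 15.6% and 16.2% of all peaks). The calls in frozen liver were 33 without fasted mouse A and 36, 34 and 36 without fed mouse A, B and C, and in fresh liver 26 without fasted mouse A and 28 without fed mouse A. Over all peaks these frozen fits called 7.36% to 10.3% higher and 9.22% to 11.8% lower, and these fresh fits 6.03% to 7.42% and 12% to 12.7%.

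**Figure D4:**
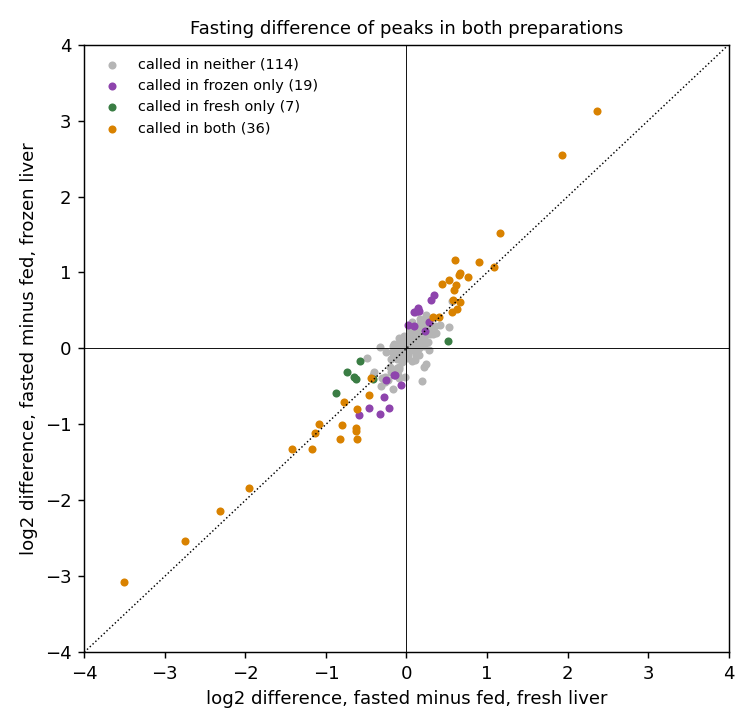
Log2 fasting difference (fasted minus fed) of the 176 member peaks in frozen liver (y axis) against fresh liver (x axis), with the dotted line marking equal values. The 36 peaks called in both (orange) lie in the upper right or lower left, and none was called in opposite directions.

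The authors' deposited table called 30 member peaks higher and 30 lower in frozen liver (34.1%, against 29.5% of its peaks) and 21 and 23 in fresh liver (25%, against 23.1%). Of the limma calls 53 of 55 in frozen and 43 of 43 in fresh liver also passed that cut in the same direction. For Slc7a14 the authors' deposited table gave log2 fold changes of 3.16 in frozen and 2.27 in fresh liver.

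Freezing moved member peaks in both directions. Over both feeding states 53 peaks were higher and 40 lower in frozen liver (52.8%; limma with feeding state as a covariate, adjusted p under 0.05), against 61.5% of all peaks, 28.7% higher and 32.8% lower. Over the members the median log2 difference was 0.06, against -0.05 over all peaks. The split between directions moved with the scaling. Scaling to peaks near gene starts gave 46 higher and 47 lower members with a median of -0.01 (26.1% and 26.7%, against 24.1% and 38.4% of all peaks, whose median was -0.12). Quantile normalization gave 58 and 31 with a median of 0.14 (33% and 17.6%, against 28.4% and 29.4%, median -0.01). At 28 peaks all 6 frozen libraries lay above all 6 fresh ones and at 12 below (against 26.9% of all peaks in either direction). Within 1 kb of a start 16 of 42 were higher and 12 lower (66.7%, against 65.4% of all such peaks). With the mouse letter as a replicate block 64 were higher and 46 lower (36.4% and 26.1%, against 32.2% and 37.9% of all peaks). Of the 93 calls 67 were kept in every other setting in which the peak was tested. The other 26 were lost in at least 1 without a change of sign.

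Over all peaks 28.7% were higher and 32.8% lower after freezing (24.1% and 38.4% after scaling to peaks near gene starts). The Slc38 genes had 26 higher and 10 lower of 64 peaks (23 and 11 after that scaling). Slc38a2 had 11 higher and 2 lower of 18, Slc38a4 9 and 3 of 22 and Slc38a3 4 and 0 of 8. The arginine transporter gene Slc7a2 had 5 and 0 of 12. The higher Slc38a2 peaks with starts at chr15:96698700 and chr15:96698833 overlap and so share reads. In Slc36 the counts were 1 higher and 6 lower of 12 (1 and 7 after scaling to peaks near gene starts, 1 and 5 after quantile normalization), and in Slc43 0 and 4 of 6 (0 and 4, and 0 and 2). Of the 9 member peaks in annotated CpG islands 7 were higher and 0 lower, where 32.5% of all 2115 CpG island peaks were higher and 24.3% lower. At the Slc38a2 start the peak at -20 bp was higher in frozen liver by 0.46 ± 0.06 (adjusted p = 6.14e-06), and a CpG island peak at -10.0 kb had 415, 447 and 525 normalized reads (lowest, median and highest of 6) in frozen libraries and 215, 248 and 289 in fresh ones. These ranges did not overlap, and the log2 difference was 0.84 ± 0.06 (limma, adjusted p = 5.44e-09).

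The largest increases after freezing lay inside Slc6a13 and Slc3a1. The Slc6a13 peak at 5.49 kb had 262, 285 and 332 normalized reads (lowest, median and highest of 6) in frozen libraries and 103, 130.2 and 165 in fresh ones, a difference of 1.15 ± 0.08 (limma, adjusted p = 4.02e-09). The Slc3a1 peak at 24.2 kb, in an MTC repeat, had 452, 533 and 643 normalized reads (lowest, median and highest of 6) in frozen libraries and 208, 248 and 271 in fresh ones, a difference of 1.13 ± 0.07 (adjusted p = 8.52e-10). At neither did the preparations overlap. Next came peaks of Slc38a2 at -43.6 kb (0.93), of Slc6a2 at 12.1 kb (0.90) and of Slc7a10 at -16.9 kb (0.86), again without overlap.

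Decreases after freezing were found in introns and at gene starts. The peak of Slc36a2, which encodes the PAT2 carrier, at 16.4 kb had 36.9, 48.1 and 63.7 normalized reads (lowest, median and highest of 6) in frozen libraries and 78, 108 and 116 in fresh ones, a difference of -1.06 ± 0.14 (limma, adjusted p = 6.43e-06). The start peak of Slc38a9 had 137, 202 and 271 normalized reads (lowest, median and highest of 6) in frozen libraries and 358, 382 and 416 in fresh ones, a difference of -0.98 ± 0.09 (adjusted p = 9.30e-08). At both the frozen libraries were all below the fresh ones. The Slc36a4 peak at 521 bp stood at -0.97 ± 0.15, the Slc43a2 start peak at -0.70 ± 0.11 and the Slc6a12 peak at 24.7 kb at -0.69 ± 0.18, the last not called under quantile normalization (adjusted p = 0.211). The Slc43a3 peak at -2.15 kb stood at -1.28 ± 0.27, with frozen and fresh libraries overlapping. Called for both fasting and freezing were 32 members (18.2%, against 20.9% of all peaks), for fasting only 28 (15.9% against 13.7%), for freezing only 61 (34.7% against 40.7%) and for neither 55 (31.2% against 24.8%).

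**Figure D5:**
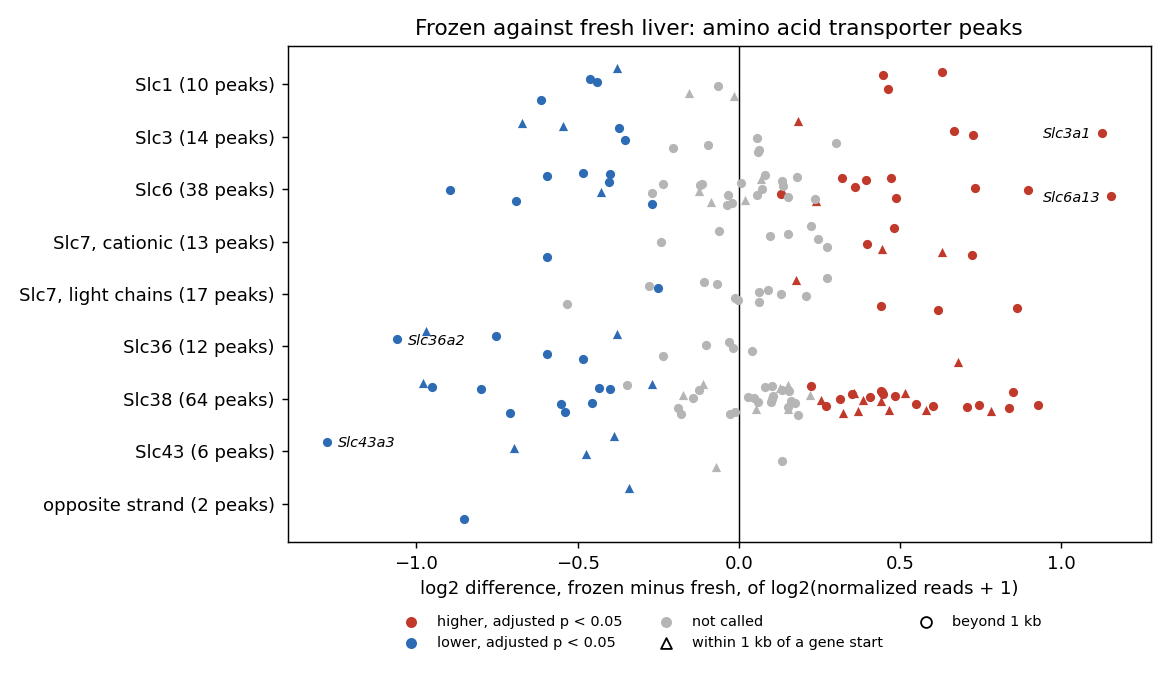
Log2 difference (frozen minus fresh, over both feeding states) of the 176 member peaks by family, with triangles within 1 kb of a start and circles beyond. Red and blue points passed the test in the higher (53) and the lower (40) direction, and Slc38 has 26 higher and 10 lower peaks and Slc36 1 higher and 6 lower.

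Genes that act with the transporters were looked at from lists. Amino acid sensing and response genes had peaks at 23 of 27 genes, and in fasted mice 25 of their 100 peaks were higher and 17 lower (42%, against the background of 34.6%). Cebpb, a transcription factor of the fasting and amino acid response, was higher at -554 bp by 0.77 ± 0.07 (limma, adjusted p = 0.000169), with all 8 of its peaks higher. Chac1, a glutathione-degrading enzyme of the stress response, had 0 higher peaks and 1 lower peak of 3, the lower one at 4.05 kb with a difference of -0.65 ± 0.06 (adjusted p = 0.000221). Ddit4, an inhibitor of mTORC1, had 8 peaks, 2 of them higher and 3 lower, with the peak at -1.39 kb at -1.46 ± 0.15 (adjusted p = 0.00024). Phgdh, of serine synthesis and named after its values were seen, was higher at 5 of 5 peaks.

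Amino acid catabolism and urea cycle genes had 27 higher and 34 lower of 282 peaks at all 39 genes (21.6%, against the background of 34.6%). Glul, which makes glutamine, had 3 higher and 0 lower peaks of 8, with a difference of 0.73 ± 0.07 (limma, adjusted p = 0.000181) at a peak 134 kb from its start. Gpt2, a mitochondrial alanine aminotransferase, had 6 higher and 0 lower of 11, with 0.95 ± 0.11 at -15.4 kb. Bckdhb, a subunit of the branched-chain keto acid dehydrogenase, had 0 higher and 3 lower of 6, with -1.11 ± 0.12 at a peak 136 kb from its start. Amino acid transporter genes outside the family rule had peaks at 6 of 10 genes, with 12 higher and 2 lower of 29 (48.3%, against 34.6%). Slc17a8, a vesicular glutamate carrier, was higher at 7 of 7 peaks, with 128 ± 34.5 normalized reads in fasted and 39.8 ± 5.30 in fed mice at -5.64 kb. Slc16a10, the aromatic amino acid carrier TAT1 of hepatocytes, was higher at 4 and lower at 2 of 14 peaks. For comparison, the mitochondrial Slc25 carriers had 45 higher and 29 lower of 207 peaks, and all other Slc genes 190 and 192 of 1063 (35.9%). Over all peaks 16.5% were higher and 18.1% lower.

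The summed marker peaks of bile duct cells and macrophages did not overlap in range between fasted and fed libraries within either preparation. The 4 peaks of 3 bile duct markers (of 6 listed) summed to 249 to 315 normalized reads in frozen fasted, against 339 to 369 in frozen fed libraries, and to 281 to 318 in fresh fasted, against 328 to 354 in fresh fed libraries. The 2 peaks of 2 macrophage markers (of 6; Clec4f, Cd5l, Marco and Vsig4 had none) summed to 55.6 to 87.2 in frozen fasted, against 89.3 to 123 in frozen fed, and to 81.4 to 108 in fresh fasted, against 119 to 161 in fresh fed libraries. The 11 peaks of 4 endothelial markers (of 6) summed to 1142 to 1241 in frozen fasted, against 1053 to 1134 in frozen fed, and overlapped in fresh liver (1026 to 1112 in fasted, against 1067 to 1164 in fed libraries). Stellate cell and lymphocyte markers had peaks at 1 gene of 6 each, with sums of at most 363 and 232. The part of these cells in the fasting differences of the transporter peaks was not tested.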

How the data were processed

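Open chromatin was measured by ATAC-seq in 12 libraries. Per the submitters' processing notes the build was mm10 and the tools included HOMER, SAMtools, DESeq2 and BWA (0.7.5a-r405), with no role stated. How reads were shifted, duplicates handled and peaks called is not given in the sources used here. The signal columns hold reads per merged peak that the authors had normalized by library before they were deposited, with the authors' peak scores and annotation. The deposited log2 fold changes and p-values of the authors are quoted by name only. Every value was a whole multiple of 1 step per library (tolerance 0.001 steps), which was taken as 1 read for depth. In 8 of the 12 columns the lowest value above 0 was more than 1 step, so the step was not certain to be 1 read and no count model was run.

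Two-sided tests were made with limma 3.58.1 (R 4.3.3) with a trended prior on log2(value + 1), without a filter, and p-values were adjusted by Benjamini-Hochberg over 52530 peaks (threshold 0.05). The scripts were tested on simulated data. Column letters A to C match no mouse number in the labels. Columns of one letter and feeding state deviated together (r 0.329 to 0.640 in 6 pairs; highest other r 0.0213; limit 0.1), so they were averaged as 1 mouse, 3 against 3. The pairing comes from the data. P-values of the average fasting comparison measure the spread between these mice. Within a single preparation they measure the spread between its libraries, 1 per mouse. Freezing was fitted over 12 libraries with feeding state as a covariate. That fit and the test of whether fasting effects differ between preparations left the pairing out, except with the replicate block.

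The members, the gene lists and the naming rule were chosen with earlier results of these data known. The rule names fixed genes by the peak nearest the start and the peak of lowest p, then the 8 higher and 8 lower called peaks of largest difference in fasting (at most 2 a gene, mice not overlapping), 5 and 5 in freezing, and 3 genes per list. Other peaks in the text complete a gene's account and were chosen after their values were seen.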

Additional observations from a re-analysis of the deposited data

How the results depend on the processing

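Counts of called member peaks were recomputed with a pseudocount of 4, without the lowest 25% of peaks, with libraries scaled to the peaks within 1 kb of a start, with quantile normalization, with the letter as replicate block and without each mouse or library. Without the lowest 25% of peaks 131 members were tested. In the average fasting comparison 34 were called, 14 of them lower (15.3% higher and 10.7% lower, against 16.4% and 13.5% of all peaks). In frozen liver 32 were called, 9 lower (17.6% and 6.87%, against 13.2% and 11.4%). In fresh liver 26 were called, 11 lower (11.5% and 8.4%, against 10.7% and 11.3%). In freezing 50 were higher and 20 lower (38.2% and 15.3%, against 36% and 27.2%). Scaling to peaks near starts left 16 higher in frozen and 13 higher in fresh liver and moved the median over all peaks to -0.08, against 0.05 as deposited and 0.04 after quantile normalization. The replicate block gave 69 calls in the average fasting comparison (18.8% higher and 20.5% lower, against 18.7% and 20% of all peaks). In freezing the block gave 110 (36.4% and 26.1%, against 32.2% and 37.9%). In the test of whether fasting effects differ between frozen and fresh liver the block called 0 members and 395 of all peaks, and the fit without it 0. Leaving out 1 mouse gave 39 to 59 calls in fasting (21 to 32 higher, 18 to 32 lower), with 39 without fed mouse A and 20 lower without fasted mouse A. The shares were 11.9% to 18.2% higher and 10.2% to 18.2% lower, against 9.4% to 15.3% and 12.3% to 18.3% of all peaks. Leaving out 1 library gave 33 to 51 calls in frozen liver (17 to 28 higher, 16 to 26 lower), with 36, 34, 36 and 33 without fed A, fed B, fed C and fasted A. The shares were 9.66% to 15.9% higher and 9.09% to 14.8% lower, against 7.36% to 11.6% and 9.22% to 15.2% of all peaks. In fresh liver leaving out 1 library gave 26 to 45 (11 to 22 higher, 13 to 25 lower), with 28 and 26 without fed A and fasted A. The shares were 6.25% to 12.5% higher and 7.39% to 14.2% lower, against 6.03% to 11.2% and 11.6% to 16.7% of all peaks. In freezing leaving out 1 mouse gave 85 to 102 (50 to 59 higher, 35 to 43 lower). The shares were 28.4% to 33.5% higher and 19.9% to 24.4% lower, against 26.6% to 29.1% and 29.6% to 33.3% of all peaks. The causes were not tested. Among the named peaks signs changed at uncalled start peaks and at 1 uncalled Slc38a1 peak. Under scaling to peaks near starts these were Slc1a5 (-0.11), Slc3a2 (-0.0073), Slc6a12 (-0.11), Slc7a5 (-0.069), Slc38a1 (-0.0016) and Slc43a1 (-0.085), and under quantile normalization Slc6a12 (-0.044). Leaving out single mice, the start peak of Slc1a5 ranged from -0.077 to 0.10, that of Slc43a1 from -0.095 to 0.11, that of Slc6a9 from -0.31 to 0.057 and that of Slc6a12 from -0.0098 to 0.047. Motif counts in widened peaks were not run, because no genome was used.

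There were 3 mice per state, and the median member peak of the shallowest library had 51 reads. Counting errors cover counting only, since PCR copies are not independent molecules. A 200 bp peak is assigned to the nearest start, which need not be the gene it acts on.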

Other observations

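Repeats held 23 of the member peaks (13.1%, against 11.8% of all peaks). In fasted mice 4 of these were higher and 5 lower (39.1%), where repeats over all peaks had 14.7% higher and 25.6% lower. The members of this kind that are described above include Slc7a10 in an L2 element, Slc7a15 in an RMER19B element and Slc36a1 in an ID_B1 element, all lower in fasted mice, and Slc6a21 in a B3 element, higher in fasted mice. Introns held 15 higher and 22 lower of 94 member peaks in fasting (16% and 23.4%, against 14.3% and 24.2% of all intronic peaks). Intergenic DNA held 7 and 7 of 47 (14.9% each, against 16.8% and 23.4%) and promoters 6 and 3 of 33 (18.2% and 9.09%, against 19.4% and 3.8%). These are counts with no test between classes.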
